A study of Mus musculus with 9 samples.

Results

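The liver genes of alcohol-fed mice given MNA were compared with those of mice fed alcohol alone, with 3 libraries in each group. AF mice received the Lieber-DeCarli liquid diet with ethanol, and AF mice with MNA received the same diet plus a daily intraperitoneal dose of MNA at 50 mg/kg. Feeding lasted 5 weeks, and the age label of every mouse is 8 weeks. A pair-fed group (PF, 3 libraries) on an isocaloric diet without ethanol is given for its levels only. The labels do not spell out MNA, and no injection of vehicle is stated for the AF mice, so that the compound and the daily injection cannot be told apart. The strain label reads C57BL/6 in PF and AF, and C57BL/7, C57BL/8 and C57BL/9 in MNA replicates 1, 2 and 3, and whether the strain differed cannot be told from these labels. The study's methods describe male C57BL/6J mice without naming the MNA group. No source ties a library to a mouse, so that the tests measure the spread between these libraries. The question put to the data was which genes and pathways differed between alcohol with MNA and alcohol alone.

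The members were the 12214 entries of the gene table that carry a known Ensembl transcript and a gene name and reach a mean of 0.5 FPKM over the 6 libraries, of 52151 entries in all and 26345 with a known transcript and a name. The entry just inside this level was Gm9780, at a mean of 0.5 FPKM, and the one just outside was Akap12, at 0.4983. FPKM counts the sequenced fragments of a gene after division by its length and by the size of the library, and differences were tested with limma on log2(FPKM + 1). A gene was called past the threshold when its unadjusted p was under 0.05 and the mean FPKM of AF with MNA over that of AF, as a log2 ratio, was above 1 or below -1. The words rose and fell are used below for such genes alone, and a gene is called higher or lower when its unadjusted p alone was under 0.05.

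The liver takes up fatty acids and breaks them down to acetyl-CoA in mitochondria and peroxisomes, and it releases part of this carbon as ketone bodies. Acyl-CoA synthetases activate the fatty acids, the carnitine shuttle carries them into mitochondria, and the nuclear receptor PPARα switches on many of the enzymes. Alcohol oxidation changes the redox state of hepatocytes and is known to slow fatty acid breakdown. Metallothioneins are small proteins that bind zinc and copper, and heat shock proteins keep other proteins folded.

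Total reads were 59831743 to 74499848 in the AF libraries and 57800660 to 82179248 in those with MNA. The summed FPKM of lncRNAs within introns was 9433 in AF replicate 3 and 8934 in MNA replicate 1, against 2477 to 4239 in the other 4 libraries. MNA replicate 1 correlated across genes at 0.94 with AF replicate 3, at 0.937 with AF replicate 1, and at 0.935 and 0.938 with the other MNA libraries, on log2(FPKM + 1), a description across genes of libraries that share their processing. AF replicate 2 held the lowest level of the 6 libraries in 3858 of the 12214 genes, the most of any library. The defining hepatocyte genes were high in every library, with Alb at 10882 to 17386 FPKM. None of the 20 tested markers of hepatocytes, macrophages, endothelial cells, stellate cells, cholangiocytes, red cells or pancreas passed an unadjusted p of 0.05. The summed level of the 4 macrophage markers (Clec4f, Vsig4, Cd5l and Adgre1) was 43.7 to 79.7 FPKM in AF and 55.2 to 71.6 with MNA, and that of the 4 endothelial markers was 17.2 to 28.7 and 22.6 to 26.6 FPKM. Markers of lymphocytes, neutrophils, muscle and adipocytes summed to at most 1.44 FPKM in any of the 6 libraries, and no one of them reached the level for testing. In these bulk samples fewer cells of a type and less RNA per cell cannot be told apart.

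With MNA, 126 genes rose and 116 fell, which is 1.03% and 0.95% of the tested genes. At an unadjusted p under 0.05, 356 genes were higher with MNA (2.91%) and 281 were lower (2.3%). Only 6 genes (0.0491%) passed an adjusted p of 0.05 (limma, Benjamini-Hochberg), so that single genes other than these rest on unadjusted values. Whether or not they passed the test, 675 genes (5.53%) had every MNA library above every AF library and 559 (4.58%) had every MNA library below. Of the 242 genes past the threshold, 182 had a higher group mean under 5 FPKM, 28 were listed at 0 in all 3 libraries of a group, and 97 had a group mean under 0.5 FPKM, so that they were tested only through the group where they were high and had to differ. The median log2 ratio of all tested genes was 0.01.

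Fatty acid oxidation and ketogenesis was, of the 38 gene lists with a tested member, the one with the largest share of members higher with MNA. Of its 36 tested genes, 15 (41.7%) were higher at an unadjusted p under 0.05 and 0 were lower, beside 2.91% and 2.3% of all genes. Acot4, Acot3, Acot1 and Acsl1 rose, and 32 of the 36 had a log2 ratio above 0. The median log2 ratio was 0.37 against 0.01 for all genes. In 17 of the 36 every MNA library was above every AF library (47.2%, against 5.53% of all genes), and in 0 of the 36 every MNA library was below. These 17 held most of the called genes and others that missed the test, while the called Acsl1 and Cpt2 were not among them. No gene of the list passed an adjusted p of 0.05. Etfb and Acot2 of the list had no entry of their own, since the table holds their transcripts under neighbouring genes.

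The acyl-CoA thioesterases, which split acyl-CoA into a free fatty acid and coenzyme A, were all past the threshold, and Acot4 had the largest single ratio of the list. Acot4, a peroxisomal member on chromosome 12 (84038379 to 84048601, GRCm38), stood at 4.03, 9.08 and 5.14 FPKM in AF and at 23.9, 19.3 and 17.5 FPKM with MNA. Every MNA library was above every AF library, and PF, at 3.58, 1.23 and 7.45 FPKM, overlapped AF. The mean rose 3.33-fold, from 6.08 ± 2.65 to 20.2 ± 3.31 FPKM (SD, n = 3 each), with an adjusted p of 0.388. Its neighbour Acot3, also peroxisomal (chromosome 12, 84052144 to 84060402), stood at 2.77, 3.19 and 7.19 FPKM in AF and at 9.26, 10.8 and 9.54 FPKM with MNA. These groups did not overlap either, and the fold was 2.25 with an adjusted p of 0.94. The Acot1 entry, which also holds the mitochondrial Acot2, was spread widely in AF, at 2.93, 16.9 and 9.02 FPKM, and stood at 20, 24 and 26.6 FPKM with MNA. Acot4 rose whichever library was left out, Acot3 in 4 of 6 such fits and Acot1 in 2 of 6.

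Acot4 and Acot3 lie next to each other and rose together, so their promoters are shown, taken from RefSeq (GRCm38.p6) as 250 bases before to 50 after the annotated start, on the plus strand at chr12:84038129-84038428 and chr12:84051894-84052193. Capitals mark the PPAR core motif AGGTCA on either strand.
Acot4: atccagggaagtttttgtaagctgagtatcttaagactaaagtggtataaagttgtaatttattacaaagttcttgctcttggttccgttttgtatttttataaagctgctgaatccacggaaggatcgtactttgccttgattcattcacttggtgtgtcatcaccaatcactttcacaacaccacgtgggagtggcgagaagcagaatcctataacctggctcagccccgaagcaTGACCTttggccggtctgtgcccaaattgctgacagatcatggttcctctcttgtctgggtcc
Acot3: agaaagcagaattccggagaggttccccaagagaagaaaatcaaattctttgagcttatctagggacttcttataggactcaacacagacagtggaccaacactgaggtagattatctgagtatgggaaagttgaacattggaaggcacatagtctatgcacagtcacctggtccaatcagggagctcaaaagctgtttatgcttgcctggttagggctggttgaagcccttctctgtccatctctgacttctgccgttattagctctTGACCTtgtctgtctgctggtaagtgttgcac
The core motif stood once in each window, as its reverse complement TGACCT, at position 238 of Acot4 and position 269 of Acot3, counted from 1 at the 5′ end. It occurred in 16.3% of all 32851 promoter windows and in 7 of 32 windows (21.9%) of the 29 list genes with a RefSeq window, those of Acadm, Acadvl, Acot3, Acot4, Cpt1a and Echs1. The direct repeat 1, in which 1 base separates a pair of core motifs, was in 0.0396% of all windows and in 0 of the 32. A match of letters is a description and no sign of binding.

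Activation and the carnitine shuttle held 3 called genes of 5. Acsl1, which activates long-chain fatty acids, stood at 16.8, 25.3 and 18.4 FPKM in AF and at 22.98, 53.8 and 60.2 FPKM with MNA. Replicates 2 and 3 with MNA were above every AF library while MNA replicate 1 lay inside the AF range. Acsl1 rose 2.26-fold on the means (adjusted p = 0.94), and it was past the threshold in 2 of 6 fits that left out 1 library, those without MNA replicate 1 or AF replicate 2. Slc25a20, the carnitine-acylcarnitine carrier of the inner mitochondrial membrane, stood at 10.2, 15.1 and 15.8 FPKM in AF and at 18.4, 25.4 and 28.9 with MNA. Its groups did not overlap, with a log2 ratio of 0.83, and it kept an unadjusted p under 0.05 without any 1 library. Cpt2, the inner-membrane carnitine palmitoyltransferase, had a log2 ratio of 0.49. Cpt1a, the outer-membrane enzyme at the gate of the shuttle, was at 19.8 to 22.1 FPKM in AF and 23.01 to 31.3 with MNA, apart but short of the test. Slc22a5, the plasma membrane carnitine transporter, overlapped, with 13.7 FPKM in AF replicate 2 and 3.48 to 6.82 in the other 5 libraries.

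The mitochondrial cycle held 5 called genes of 11, all higher with MNA, by modest ratios. Hadha and Hadhb encode the α and β subunits of the mitochondrial trifunctional protein, which carries out the last steps for long-chain acyl-CoA. Hadha was tight in AF at 21.4, 22.1 and 21.98 FPKM and stood at 26.1, 31.1 and 29.4 FPKM with MNA, a log2 ratio of 0.40. Hadhb, at 7.64, 9.18 and 7.27 against 9.26, 11.95 and 12.4 FPKM, had a ratio of 0.48 and also did not overlap. Eci1, an isomerase for unsaturated fatty acids (0.47), Decr1, the dienoyl-CoA reductase (0.41), and Acadm, the medium-chain acyl-CoA dehydrogenase (0.32), completed the called genes, each with groups that did not overlap. Acads, the short-chain dehydrogenase, was the 1 member of this role below 0, at a log2 ratio of -0.18 that did not pass the test. Etfdh, which passes the electrons of the dehydrogenases to ubiquinone, had a log2 ratio of 0.43 and was called, and its partner Etfa (0.22) was apart between the groups but not called.

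In the peroxisomal cycle 7 of 7 genes had a log2 ratio above 0, and 1 was called. This was Acaa1b, a peroxisomal 3-ketoacyl-CoA thiolase, at 45.0, 82.5 and 78.9 FPKM in AF and 107, 165 and 133 FPKM with MNA. Its groups did not overlap, its log2 ratio of 0.97 was just short of the fold set for the threshold, and it kept an unadjusted p under 0.05 without any 1 library. Ehhadh, the peroxisomal bifunctional enzyme and a well-known PPARα target, turned on AF replicate 2. It stood at 6.41, 91.0 and 11.6 FPKM in AF and at 46.1, 42.4 and 61.0 FPKM with MNA, a log2 ratio of 0.46 that became 2.47 and passed the threshold without AF replicate 2.

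The ketogenic genes held 1 called gene of 3, and their log2 ratios ran from 0.005 to 0.41. The called gene was Bdh1, which interconverts acetoacetate and 3-hydroxybutyrate. Bdh1 was at 15.8, 13.3 and 15.2 FPKM in AF and at 19.6, 19.4 and 19.7 FPKM with MNA. The MNA libraries lay close together and above every AF library, and the log2 ratio was 0.41.

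Of the regulators and related genes, Vnn1, a pantetheinase and known PPARα target, was called at a log2 ratio of 0.78, with 9.55 to 11.9 FPKM in AF and 13.7 to 24.7 with MNA. Ppara itself was at 6.90, 8.93 and 14.7 FPKM in AF and 12.7 to 13.7 with MNA, which overlap. Ppargc1a, a coactivator of mitochondrial genes, had a log2 ratio of -0.87 that did not pass the test, and it was the 1 list gene that fell past the threshold when MNA replicate 1 was left out (-1.32). Fgf21, a fasting hormone of the liver, rested on 1 library, with 8.87 FPKM in MNA replicate 3 and 0.55 to 2.64 in the other 5. Pdk4, which restrains pyruvate oxidation, was at 0.76, 24.0 and 1.67 FPKM in AF and 3.53, 11.5 and 5.59 with MNA, with AF replicate 2 again the highest.

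**Figure D1:**
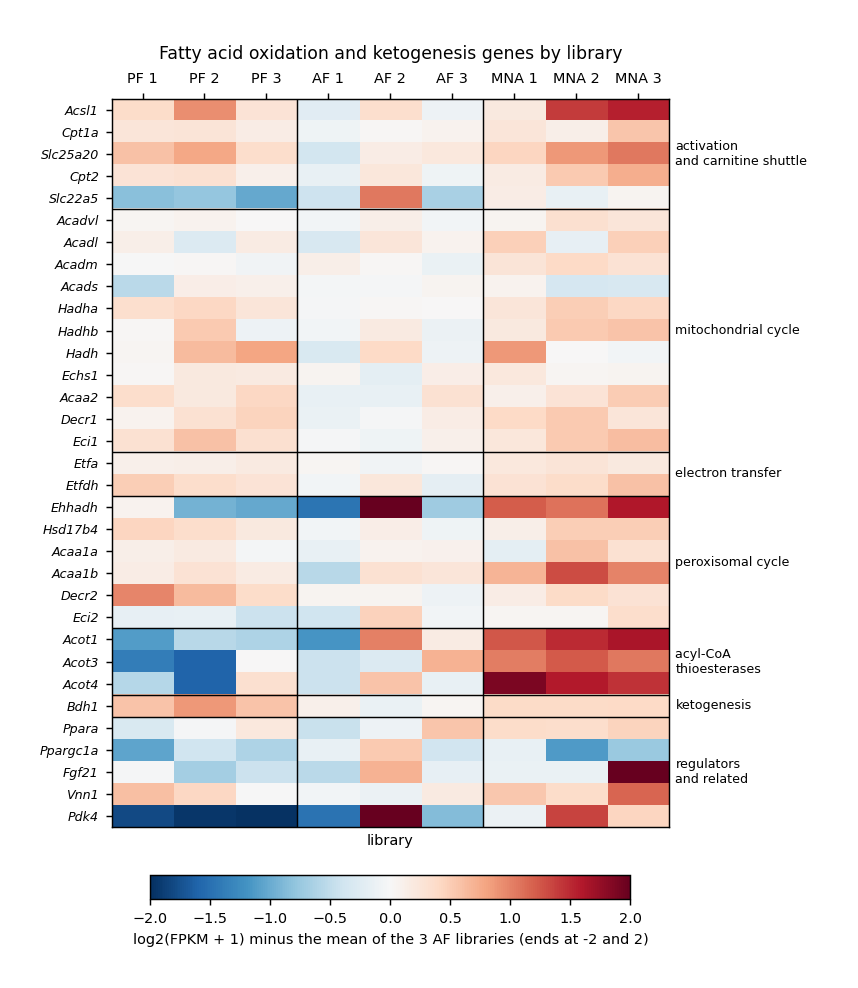
Heat map of genes of fatty acid oxidation and ketogenesis, ordered by role, in the 9 libraries (PF, AF and AF with MNA). The colour gives log2(FPKM + 1) minus the mean of the 3 AF libraries, red for higher and blue for lower. The 3 MNA columns are mostly red, AF replicate 2 shows strong red for Ehhadh and Pdk4, and MNA replicate 1 is paler than the other MNA libraries for Acsl1.

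The members of this list were read library by library. MNA replicates 1, 2 and 3 were above all 3 AF libraries in 21, 22 and 25 of the 36 genes, beside 23.5%, 22.3% and 21.5% of all tested genes. MNA replicate 1 was the lowest of the MNA libraries in 21 of the 36 (58.3%, against 32.5% of all genes). Its median distance from the AF mean was 0.21 on log2(FPKM + 1), against 0.39 and 0.44 in MNA replicates 2 and 3. Without MNA replicate 1, the count of genes higher with MNA was 15 (all genes 3.03%), of which 13 were among the 15 called with all libraries. Without AF replicate 2, which stood apart for several PPARα targets, it was 17 (all genes 2.84%), with 12 shared. The count was 10 without AF replicate 3 (all genes 4.93%), and 12 without AF replicate 3 and MNA replicate 1 (all genes 4.58%), the libraries of high intron signal. It dropped to 8 without AF replicate 1, to 6 without MNA replicate 2 and to 7 without MNA replicate 3, at a background of 2.51%, 1.94% and 1.81% of all genes. The share of the list stayed above that of all genes in each of these fits.

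**Figure D2:**
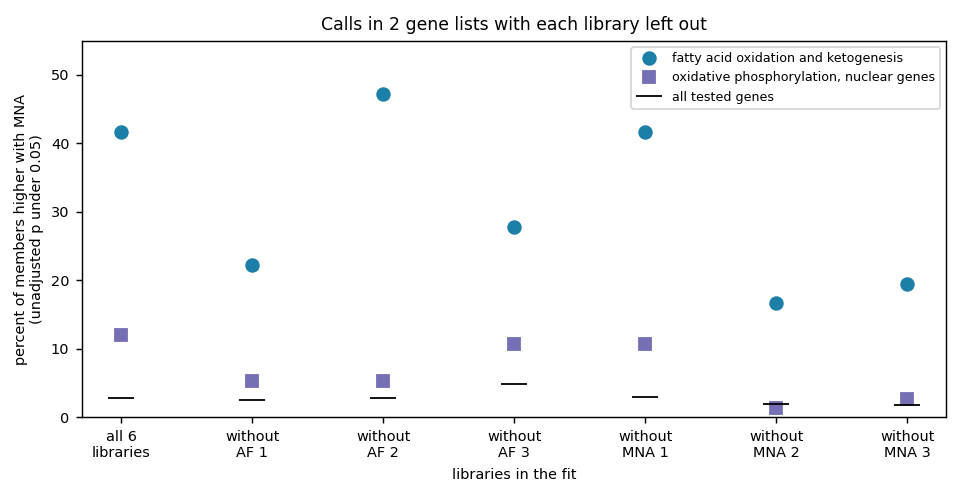
Share of list members (percent, vertical axis) that were higher with MNA at an unadjusted p under 0.05, with all 6 libraries and without each library in turn (horizontal axis). Circles are fatty acid oxidation and ketogenesis (36 genes), squares the nuclear genes of oxidative phosphorylation (75 genes) and dashes all tested genes. The circles lie above the dashes in every fit, and the square without MNA replicate 2 lies below its dash.

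The electrons of fatty acid oxidation enter the respiratory chain, and its nuclear genes were followed next. Of 75 tested genes of oxidative phosphorylation, 9 (12%) were higher with MNA at an unadjusted p under 0.05 and 0 were lower, beside 2.91% and 2.3% of all genes, and 0 passed the threshold. In 14 of the 75 every MNA library was above every AF library, whether or not the gene passed the test (18.7%, against 5.53% of all genes). The median log2 ratio was 0.17, and 63 of the 75 had a ratio above 0. Atp5g3, a gene of the c subunit of ATP synthase, was at 20.5, 19.6 and 22.2 FPKM in AF and at 29.6, 39.0 and 37.0 FPKM with MNA. Its groups were apart, with a log2 ratio of 0.76 and an adjusted p of 0.72, and it was called whichever library was left out. Uqcrq and Cyc1 of complex III had log2 ratios of 0.70 and 0.56, and Cox7a2 of complex IV had 0.62. The 5 called genes of complex I, Ndufs6, Ndufb6, Ndufa2, Ndufa4 and Ndufs3, ranged from 0.34 to 0.51.

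These small differences moved with single libraries. AF replicate 2 held the lowest level of the 6 libraries in 51 of the 75 genes, and MNA replicate 2 the highest in 36. Over all 12214 genes these counts were 4041 and 1823, ties included. Without AF replicate 2 the count was 4 higher and 1 lower of 75, beside 2.84% and 3.38% of all genes in that fit, and 46 of the 75 coefficients were above 0. The count was 1 without MNA replicate 2, 2 without MNA replicate 3 and 4 without AF replicate 1, beside 1.94%, 1.81% and 2.51% of all genes. It was 8 both without MNA replicate 1 (3.03% of all genes) and without AF replicate 3 (4.93%). The mitochondrial ribosomal proteins (72 genes) and the cytosolic ribosomal proteins (81 genes) had 0 members past the unadjusted p in either direction, at medians of 0.02 and 0.02. No gene of the mitochondrial genome was among the named entries.

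Among the cytosolic heat shock proteins, 3 of 16 were higher with MNA at an unadjusted p under 0.05 (18.8%, against 2.91% of all genes) and 0 were lower, with a median log2 ratio of 0.36. Hspa1a, the stress-induced member of the 70 kDa family, rose 6.70-fold, from 0.60, 1.13 and 2.21 FPKM in AF to 3.55, 14.4 and 8.44 FPKM with MNA (adjusted p = 0.94). The groups did not overlap, the entry also holds the near-identical Hspa1b, and PF replicate 1 was higher than all at 25.4 FPKM. Hspa8, the constitutive member, was at 168, 136 and 138 FPKM in AF and 236, 230 and 200 FPKM with MNA, apart at a log2 ratio of 0.59. Hsph1, a nucleotide exchange factor for these chaperones, rose 2.18-fold, from 2.03 to 4.16 FPKM in AF to 4.77 to 8.79 FPKM with MNA, and it was past the threshold in 3 of 6 fits that left out 1 library. MNA replicate 1 was the lowest of the MNA libraries in 11 of the 16 genes (68.8%, against 32.5% of all genes). AF replicate 2 was the lowest of the 6 libraries in 11 of the 16, beside 4041 of all 12214 genes, ties included. Without MNA replicate 1, 5 were called higher, where 3.03% of all genes were. The Hspa1a promoter from RefSeq (GRCm38.p6, minus strand, chr17:34972107-34972406) is shown with the heat shock core GAANNTTC in capitals, searched on both strands.
Hspa1a: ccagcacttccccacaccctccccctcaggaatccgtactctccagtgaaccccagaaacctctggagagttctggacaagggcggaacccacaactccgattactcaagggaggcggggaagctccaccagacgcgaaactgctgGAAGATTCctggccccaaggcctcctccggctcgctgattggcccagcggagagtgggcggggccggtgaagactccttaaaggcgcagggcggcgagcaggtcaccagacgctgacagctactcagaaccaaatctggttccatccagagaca
The core was found once, at position 147 from the 5′ end, and it was present in 7.86% of all promoter windows.

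Metallothioneins went the other way. Mt1 (chromosome 8, 94179082 to 94180327) stood at 198, 512 and 151 FPKM in AF and at 104, 92.0 and 77.3 FPKM with MNA. Every MNA library was below every AF library, while PF was far lower at 27.8, 7.30 and 6.98 FPKM. The mean of Mt1 fell 3.15-fold, with an adjusted p of 0.94. Mt2, its neighbour, was at 163, 493 and 89.6 FPKM in AF and 68.1, 40.5 and 63.4 FPKM with MNA, and fell 4.33-fold. AF replicate 2 was the highest for both, and without it the log2 ratios went from -1.65 to -0.94 for Mt1, under the fold of the threshold, and from -2.12 to -1.14 for Mt2. Mt2 missed the test without MNA replicate 2. Slc39a14, a zinc and iron importer induced in the acute phase, was lower with MNA at 14.2 to 33.1 against 10.2 to 13.03 FPKM, a log2 ratio of -0.97. These 3 were the called members of the 17 genes of metallothioneins and iron handling (17.6%, against 2.3% of all genes), whose median was -0.09. Capitals in the Mt1 promoter (RefSeq, GRCm38.p6, plus strand, chr8:94178839-94179138) mark the metal response core, TGCACNC or TGCGCNC, on either strand.
Mt1: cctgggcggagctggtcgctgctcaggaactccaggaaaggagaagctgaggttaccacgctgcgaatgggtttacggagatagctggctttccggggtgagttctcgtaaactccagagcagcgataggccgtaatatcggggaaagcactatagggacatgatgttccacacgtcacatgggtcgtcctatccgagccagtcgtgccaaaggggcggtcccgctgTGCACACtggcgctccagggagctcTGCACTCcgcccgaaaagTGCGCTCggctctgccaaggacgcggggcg
The core occurred 3 times in the Mt1 window and 4 times in that of Mt2, and it was present in 25.7% of all promoter windows.

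Acute phase proteins, which the liver secretes in inflammation, had a median log2 ratio of -0.44 over 23 tested genes, and the list includes Mt1 and Mt2, its 2 called members (8.7%, against 2.3% of all genes lower). AF replicate 2 was the highest of the 6 libraries in 19 of the 23, beside 1497 of all 12214 genes, ties included. For example, Saa1 stood at 214 FPKM in AF replicate 2 against 1.64 to 42.8 FPKM in the other 5. Without AF replicate 2 the median was 0.18, and without AF replicate 3 it was -0.78, with 8 of 23 called lower (2.48% of all genes). The list therefore gave no direction that held without this library.

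Genes outside these lists were taken by lowest p among those past the threshold with groups apart and at least 5 FPKM in the higher group, of which 18 were higher and 17 lower. Tmem56 came first among the higher genes, at 5.96, 10.6 and 8.08 FPKM in AF and 29.3, 35.4 and 21.4 FPKM with MNA, a 3.50-fold rise (adjusted p = 0.313). Each MNA library was at least 2 times as high as the highest AF library, and PF was spread over 8.70 to 33.8 FPKM. Rfk, the riboflavin kinase that makes the flavin cofactor FMN, rose 3.16-fold to 15.5 to 20.9 FPKM. AF replicate 3 was the high AF library for Rfk, at 11.1 FPKM against 3.25 and 2.48. Nmrk1, the nicotinamide riboside kinase of NAD salvage, rose 2.06-fold, from 3.52, 1.79 and 4.05 FPKM to 6.75, 5.59 and 6.96 FPKM. Foxa2, a transcription factor of hepatocytes, rose 4.91-fold from a low 0.93 to 1.15 FPKM, with 9.69 FPKM in MNA replicate 2 and 2.42 and 3.56 in the others. Aaed1 rose 2.39-fold, Dusp3, a dual-specificity phosphatase, 2.62-fold, and the antisense RNA Gm28959 2.21-fold.

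Among the genes that fell, Atp1b1, the β subunit of the sodium-potassium pump, stood at 9.48, 14.1 and 7.73 FPKM in AF and 3.82, 2.02 and 2.51 FPKM with MNA. The groups were apart by more than 3 FPKM, PF was at 2.68 to 5.86 FPKM, and the fall was 3.75-fold (adjusted p = 0.367). Bcl2l1, an inhibitor of apoptosis, fell 3.73-fold from 6.26 to 7.29 FPKM in AF to 2.29, 2.94 and 0.11 FPKM with MNA. Tmem106b, a lysosomal membrane protein, fell 2.85-fold, from 18.4, 49.3 and 50.0 FPKM to 11.85, 11.98 and 17.45 FPKM, and was not past the threshold without AF replicate 2 or AF replicate 3. Lasp1, an actin-binding protein, fell 2.45-fold and Mfsd14b 2.05-fold. Atp1b1, Bcl2l1, Lasp1, Tmem56, Rfk, Foxa2, Aaed1 and Dusp3 stayed past the threshold whichever library was left out, and Nmrk1 and Mfsd14b did in 4 of 6 such fits.

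The 6 genes with an adjusted p under 0.05 were short RNAs or entries at low levels. Gm24924 and Gm26244, copies of the spliceosomal U1 RNA, were at 537 to 814 and 537 to 817 FPKM in AF and at 0 and 13.7 to 27.9 FPKM with MNA (adjusted p = 1.44e-05 and 0.00706). Rnu1a1, a further copy, fell in the same way without passing the adjusted p, from 541 to 822 FPKM to 0 to 21.3 FPKM. The table held 11 entries of this kind with at most 4 differences from Rnu1a1 over 164 bases, 6 of them identical. Reads of identical copies cannot be assigned to 1 of them, and the copies did not move together: Gm22317, identical to Rnu1a1, stood at 158 to 237 FPKM in AF and at 536, 3156 and 8.24 FPKM with MNA. The sum of the 11 entries was 3483, 3929 and 4046 FPKM in AF and 1100, 3325 and 1334 FPKM with MNA, so the single-copy values are uncertain. The other 4 were Gm17103, an antisense RNA that fell from 2.08 to 2.24 FPKM to 0.33 to 0.38 FPKM, RP24-282C4.9, which fell from 2.97 to 4.65 FPKM to a listed 0, and B3galt6 and Gm44249, each listed at 0 in AF and at 1.00 to 1.10 FPKM with MNA. These 4 and Gm24924 had a mean under 0.5 FPKM in 1 group, so that they reached the level for testing only through the other group and had to differ. Their adjusted p is therefore given as a description. B3galt6, a galactosyltransferase of proteoglycan linkers, was the 1 coding gene of the 6.

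Of the 38 lists with a tested member, 27 had none past the threshold. Among them was ethanol and acetaldehyde metabolism, with 0 of 15 called in either direction, where Cyp2e1, the ethanol-induced cytochrome, was at 2620 to 3067 FPKM in AF and 2993 to 3378 with MNA and Adh1 had a log2 ratio of 0.24. In this list 2 of 15 were higher without AF replicate 3 and 2 without MNA replicate 1, beside 4.93% and 3.03% of all genes. Cytochrome P450 families 1 to 4 had 2 genes higher and 1 lower at an unadjusted p under 0.05 of 50 (4% and 2%, beside 2.91% and 2.3% of all genes). These counts became 5 and 4 without AF replicate 3, where 4.93% and 2.48% of all genes were called. They became 4 and 2 without MNA replicate 1, where 3.03% and 2.82% of all genes were called. Cholesterol synthesis had 0 of 26 called, and 3 higher without AF replicate 3 (4.93% of all genes). The ribosomal lists had 0, and fatty acid synthesis had 2 higher of 22 (9.09%, Me1, the malic enzyme, and Fads2, a desaturase). In nicotinamide methylation and NAD salvage, 2 of 19 were higher (10.5%, against 2.91% of all genes), Nmrk1 and Nadk2, the mitochondrial NAD kinase (log2 ratio 0.40). Nnmt, which methylates nicotinamide, was at 22.4, 48.6 and 8.95 FPKM in AF and 13.1, 16.7 and 20.3 FPKM with MNA, which overlap.

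Other lists held 1 or 2 genes past the threshold at mostly low levels. Cxcl12, a chemokine of the liver stroma, rose from 5.28, 5.57 and 8.83 FPKM to 9.05, 30.9 and 23.6 FPKM, and Cxcl10, an interferon-induced chemokine, stood at 0.35 to 0.76 FPKM in AF and 0.74 to 1.48 with MNA. These were the called members of 18 cytokine and chemokine genes (11.1%, against 2.91% of all genes). Elovl3, a fatty acid elongase, rose 3.93-fold, with 14.8 and 16.8 FPKM in MNA replicates 2 and 3 but 2.93 FPKM in MNA replicate 1, inside the AF range of 2.33 to 3.99. Cish, an inhibitor of cytokine receptors, likewise had MNA replicate 1 (1.17 FPKM) inside the AF range of 0.82 to 1.41. Cry1, a repressor of the circadian clock, rose 2.05-fold (1.37 to 2.98 against 3.70 to 5.55 FPKM) and Map1lc3a, an autophagosome protein, 2.05-fold (3.63 to 4.50 against 5.07 to 10.8 FPKM). In endoplasmic reticulum stress Manf rose, in an entry that also holds Rbm15b, and Chac1, a glutathione-degrading enzyme, fell, at 1.33 to 2.90 against 0.04, 1.39 and 0.23 FPKM. The size of this fall turned on single libraries, with a difference on log2(FPKM + 1) of -1.49 without MNA replicate 2 and -0.89 without MNA replicate 1, where the test was missed. Of 6 fits that each left out 1 library, Cry1 was past the threshold in 4, Cxcl12 and Map1lc3a in 3, Cxcl10, Cish, Manf, Chac1 and Egr1 in 2, and Elovl3 in 1, the fit without MNA replicate 1. Egr1 rose and Klf10 was lower among 17 immediate early genes (5.88% each, against 2.91% higher and 2.3% lower of all genes). The median log2 ratio of the 17 was -0.81, a value that was -0.41 without AF replicate 2 and -1.003 without AF replicate 3. In the fit without AF replicate 3, 5 of the 17 were called lower and 0 higher, where 2.48% of all genes were called lower. Without AF replicate 2 the counts were 0 lower and 2 higher, beside 3.38% and 2.84% of all genes.

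**Figure D3:**
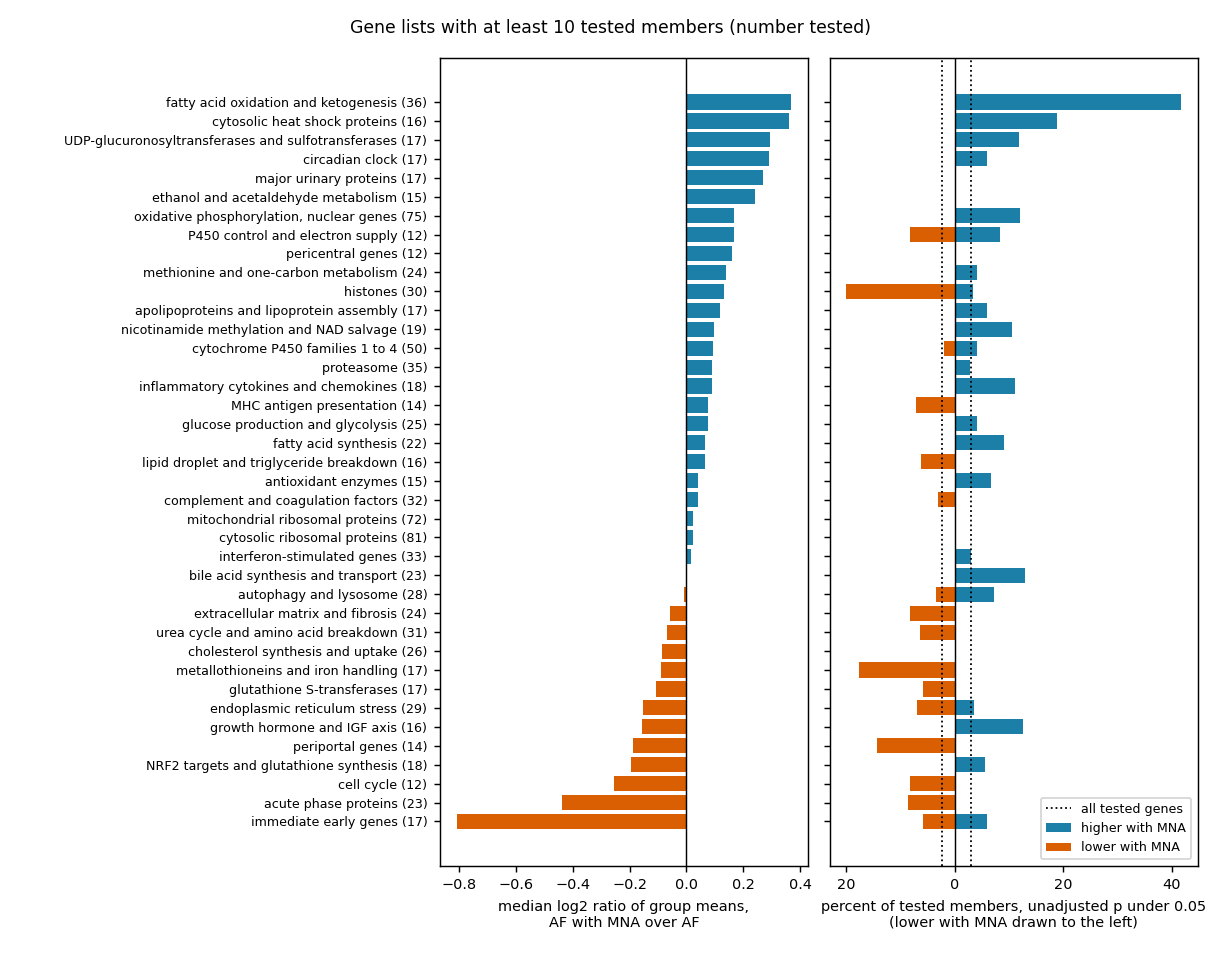
Gene lists with at least 10 tested members (number in parentheses). The left bars give the median log2 ratio of the group means, AF with MNA over AF, and the right bars the percent of members with an unadjusted p under 0.05, higher with MNA to the right and lower to the left, with dotted lines for all tested genes (2.91% and 2.3%). Fatty acid oxidation and ketogenesis has the longest bar of members higher with MNA, 41.7%.

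The KEGG pathways and GO terms printed in the table itself were then ranked by the median log2 ratio of their tested entries, over 238 pathways and 1325 terms of 15 to 300 entries. Fatty acid degradation had the highest KEGG median, 0.28, with 7 of 36 higher with MNA at an unadjusted p under 0.05 (Acaa1b, Hadha, Eci1, Acsl1, Hadhb, Acadm and Cpt2) and 0 lower, where 2.91% of all genes were higher and 2.3% lower. PPAR signaling (0.21, 7 of 48) and Peroxisome (0.19, 7 of 63) followed among the first 4, next to Butanoate metabolism (0.24, 2 of 16). These pathways share members with one another and with the list above. Called peroxisomal genes beyond that list were Pex11a, which divides peroxisomes (8.98, 21.4 and 9.54 against 20.7, 31.7 and 26.0 FPKM), Pxmp4, Crat, the carnitine acetyltransferase, Ephx2, an epoxide hydrolase, and Hacl1, a lyase of α-oxidation (8.64 to 9.59 against 11.99 to 18.65 FPKM), and they are named here because their values were called. Of the GO terms, fatty acid beta-oxidation had the second highest median, 0.32, with 5 of 29 higher. The lowest KEGG medians were small, -0.19 for Hypertrophic cardiomyopathy (HCM), with Actg1, Itgav and Itgb3 lower, and -0.18 for Base excision repair.

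Mineral absorption had the largest KEGG share of genes that fell, 3 of 23 (Atp1b1, Mt1 and Mt2), beside 0.95% of all genes. The share was 6 of 63 in Systemic lupus erythematosus and 6 of 86 in Alcoholism, in both through the same 6 histone genes, Hist1h3b, Hist1h2bb, Hist1h3d, Hist1h4m, Hist1h4n and Hist2h4. Over the 30 tested histone entries, a group formed after these values were seen, the median log2 ratio was 0.13, and Hist1h2bg rose. Most of the 7 rested on libraries listed at 0. Hist2h4 was at 12.2, 10.4 and 16.1 FPKM in AF and at 0, 0 and 13.2 FPKM with MNA, and Hist1h2bg was at 0 in AF and at 6.97, 12.3 and 0 FPKM with MNA. Histone genes are near-identical copies, so a switch between copies and a change in level cannot be told apart.

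MNA replicate 1 was weighed against the other libraries. It was above all other 5 libraries in 1928 genes and below them in 1368, while the other 5 libraries were the highest in 1472 to 3060 genes and the lowest in 1458 to 3858. By more than 1 on log2(FPKM + 1) it stood above the nearest library in 11 genes and below in 29, against 9 to 37 and 27 to 41 in the others. Among the 242 genes past the threshold it was the MNA library nearest to the AF mean in 118, against 55 for MNA replicate 2 and 69 for MNA replicate 3, and among all 12214 genes in 4694, 3645 and 3875. Without MNA replicate 1, 323 genes passed the threshold, 145 higher and 178 lower, and 153 of them were among the 242.

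The genes farthest below the others in MNA replicate 1 were present in the other 5 libraries of the comparison. Tst, the mitochondrial thiosulfate sulfurtransferase, was at 5.86 FPKM in MNA replicate 1 and at 57.5 to 82.4 FPKM in the other 5 libraries. Ak3, a mitochondrial adenylate kinase, was at 30.1 against 93.3 to 109 FPKM, Pnrc1 at 1.37 against 25.3 to 39.1 FPKM, and Cldn3, a tight junction protein, at a listed 0 against 10.2 to 30.2 FPKM, with PF replicates 1 and 3 also at 0. Arf3 and Gm2a, the activator of ganglioside breakdown, stood at 3.79 and 2.83 FPKM, against 14.6 to 16.6 and 11.5 to 16.3 FPKM. Among the genes farthest above were Gm42427, an unclassified transcript, at 144 FPKM against 0 in the other 5, and Slc30a1, a zinc exporter, at 10.8 against 0.23 to 1.97 FPKM. Elovl6, which elongates palmitate, stood at 47.1 against 4.83 to 22.1 FPKM, and the P450 genes Cyp2b13 and Cyp2a22 at 25.5 and 18.0 FPKM, against 4.77 to 11.6 and 1.53 to 7.75 FPKM. None of these genes passed the threshold between the groups.

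**Figure D4:**
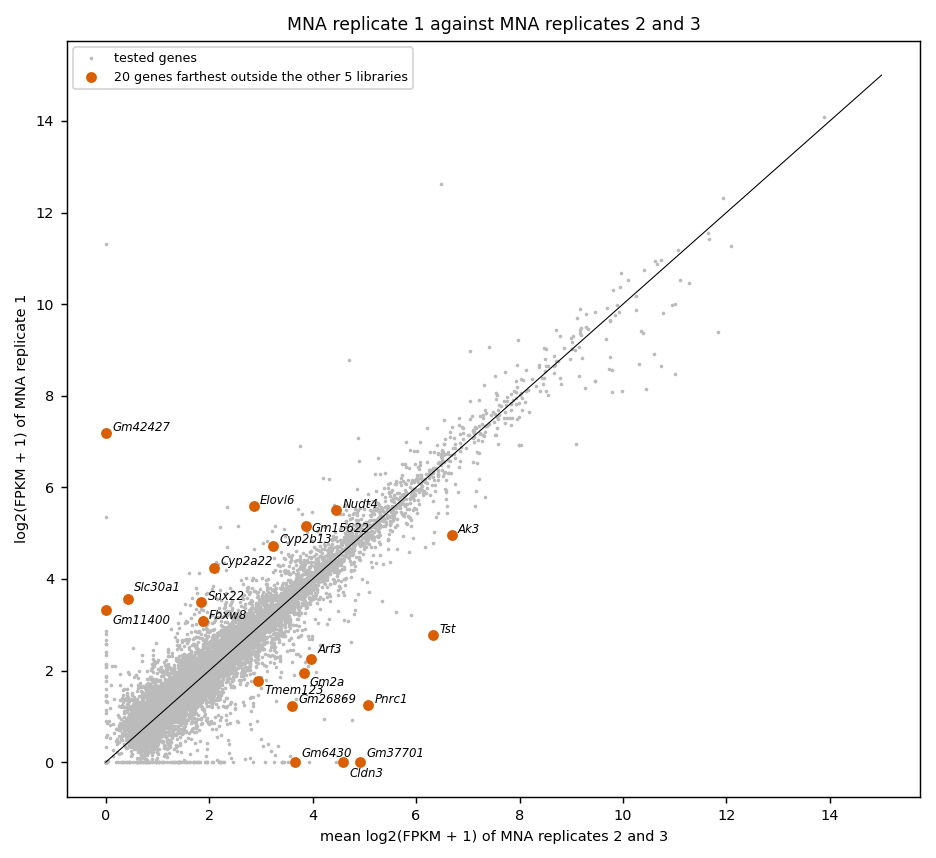
Level of each tested gene, as log2(FPKM + 1), in MNA replicate 1 (vertical axis) against the mean of MNA replicates 2 and 3 (horizontal axis), with the line of equal levels. The 20 orange genes are the 10 farthest above and the 10 farthest below the other 5 libraries among genes of at least 5 FPKM, and Tst, Ak3 and Pnrc1 lie below the line.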

How the data were processed

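Liver RNA of 9 mouse samples (3 per group) was depleted of rRNA and sequenced as paired-end, strand-marked libraries. The submitters' processing notes name cutadapt 1.9, FastQC, HISAT2, TopHat, StringTie 1.3.4 and edgeR. The deposited gene table holds the authors' FPKM values per entry, with transcript, KEGG and GO columns, and the lncRNA table also holds FPKM. Total reads were recovered from the deposited circRNA table, in which the authors give a count and a normalized signal for each circRNA. Fold changes and p-values of the authors were not used. The build is not given in the sources used here, and 78875 of 79252 known transcript identifiers match GENCODE M21 (GRCm38), from which positions were taken.

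Here log2(FPKM + 1) of the 6 libraries of AF and AF with MNA was fitted with limma 3.58.1 (R 4.3.3, eBayes with intensity trend) over entries with a mean of at least 0.5 FPKM, with Benjamini-Hochberg adjustment, and tested on simulated data. Fold changes are ratios of group mean FPKMs. Members, lists and tests were chosen with earlier results of these data known. Named genes were those with an adjusted p under 0.05, the 10 of lowest p in each direction with groups apart and at least 5 FPKM, the list members past the threshold or else of highest level, the 8 leading pathways and terms by median and by share, and the 10 genes farthest above and below in MNA replicate 1. Further members of fatty acid oxidation, oxidative phosphorylation, heat shock, metallothionein, peroxisome and histone groups are named after their values were seen. StringTie merged neighbouring genes in 395 tested entries that hold at least 2 coding genes. Some members of these lists are counted and not reported here by name.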

Additional observations from a re-analysis of the deposited data

How the results depend on the processing

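The count of 242 genes past the threshold (126 higher and 116 lower with MNA) moved most with the level set for testing. It was 675 (303 higher, 372 lower) with no minimum level and 81 (42 and 39) with a minimum mean of 2 FPKM. Where the coefficient of limma set the fold it was 99 (50 and 49). Leaving out 1 library gave 209 to 367 genes, 104 to 235 higher and 105 to 178 lower. The 367 came without AF replicate 3 (235 higher), and the 178 lower genes without MNA replicate 1. Without both of these libraries, an alternative added with the data in view, 477 genes passed (266 and 211), and 149 of them were among the 242. The 6 genes with an adjusted p under 0.05 became 2 with no minimum level, 2 with a minimum mean of 2 FPKM, 3 without AF replicate 3 and MNA replicate 1, and 6 to 13 without 1 library. With all 9 libraries in the limma fit the count was 0, where 752 genes had an unadjusted p under 0.05. Fatty acid oxidation genes higher with MNA numbered 6 to 17 without 1 library, and oxidative phosphorylation genes 1 to 8. The cause of these moves was not tested. Same-numbered AF and MNA libraries deviated together by correlations of 0.062, 0.032 and -0.002, which show no pairing by number and cannot exclude one. A replicate block gave 260 genes past the threshold, 1 gene with an adjusted p under 0.05, 12 fatty acid oxidation genes and 5 oxidative phosphorylation genes. Of 581 comparisons of the named genes past the threshold with an alternative, 500 kept direction and threshold, 81 lost the threshold and 0 changed sign. Many of these genes were chosen with groups apart, where leaving out a library cannot change the sign. The 0 was therefore largely set in advance and is no sign of stability. Each arm has 3 libraries, so that small differences between groups could be missed, and FPKM values of low entries rest on few reads.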

Other observations

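A gene of amino acid breakdown was lower with MNA. Sds, the serine dehydratase of the periportal zone, stood at 32.8, 42.2 and 25.0 FPKM in AF and had a log2 ratio of -0.76. It counted among 31 tested genes of the urea cycle and amino acid breakdown. Of these, 0 were higher and 2, Sds and Arg1, were lower at an unadjusted p under 0.05 (6.45%, against 2.3% of all genes). The same 2 were the called members of 14 periportal genes (14.3%), whose median log2 ratio was -0.19. In 4 of the 14 every MNA library was below every AF library (28.6%, against 4.58% of all genes).

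Fatty acid synthesis held 2 called genes of 22, Me1 and Fads2, both higher with MNA (9.09%, against 2.91% of all genes). Me1, which makes NADPH in the cytosol, stood at 24.7, 25.7 and 32.0 FPKM in AF and at 45.9, 44.9 and 35.1 FPKM with MNA. Fads2, the delta-6 desaturase, was at 137, 109 and 153 FPKM in AF and 183, 193 and 184 FPKM with MNA. The groups of both genes were apart, and PF was higher than every MNA library for Fads2, at 257 to 374 FPKM.

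Among the GO terms, chemokine-mediated signaling pathway had the highest median log2 ratio, 0.36 over 15 tested entries. Cxcl12 and Cxcl10 of this term were higher with MNA and Ccl21a was lower. The major urinary proteins, made by hepatocytes under growth hormone, had a median log2 ratio of 0.27 over 17 tested genes, and 0 passed the unadjusted p in limma. This rested on AF replicate 1, without which the median was -0.03 and 5 of 17 coefficients were above 0, and the median was 0.88 without AF replicate 2. Their summed level was 7642, 29020 and 12550 FPKM in AF and 9666, 25070 and 27360 FPKM with MNA, so the groups overlapped.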
